A study of Mus musculus with 8 samples.

Results

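The cytochrome P450 genes of families 1 to 4 were taken by name from the gene counts of 8 mouse liver libraries. Of 25229 gene names, 85 carried the symbol of a Cyp1, Cyp2, Cyp3 or Cyp4 gene. The 4 with a pseudogene name and the 19 whose sense reads summed to under 80 over the 8 libraries were left out, which gave 62 genes in 16 subfamilies. Just inside the limit stood Cyp3a57 with 90 reads and Cyp4f18 with 113, and just outside it stood Cyp2t4 with 68 and Cyp2d34 with 15. All 62 passed the filter on low counts, so each one was tested.

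P450 enzymes are heme proteins of the endoplasmic reticulum that put an oxygen atom into their substrate, with electrons that reach them from NADPH through P450 reductase (Por) and in part through cytochrome b5. Families 1 to 3 act mainly on drugs, toxins, steroids and bile acids, and family 4 and the Cyp2j and some Cyp2c enzymes act on fatty acids and arachidonic acid. In mouse liver many of these genes are expressed in one zone of the lobule, are induced through receptors such as AhR, CAR, PXR and PPARα, or differ between the sexes under the control of growth hormone.

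All animals were C57BL/6 mice null for Ifih1 (Ifih1-/-), which encodes MDA5, a cytosolic sensor of long double-stranded RNA. All also had Alb-Cre, in which the albumin promoter drives Cre recombinase in hepatocytes. They differed in Adar1 (gene symbol Adar), which encodes the RNA-editing enzyme ADAR1: wild type on both alleles (wt/wt, 3 libraries), 1 floxed allele (wt/flox, 2 libraries) or both alleles floxed (flox/flox, 3 libraries, although the design text counts 2). In each group the labels give replicate 1 an age of 11 weeks and replicate 2 one of 9 weeks. Replicate 3, present in wt/wt and flox/flox, came from mice 7 weeks old. By their labels, wt/wt replicate 3 and flox/flox replicates 1 and 3 were female and the other 5 mice male. Livers were perfused with collagenase, and the pelleted, gradient-purified cells gave strand-specific libraries depleted of ribosomal RNA. The files of the wt/flox and flox/flox libraries bear a batch2 mark that the wt/wt files do not, so for every comparison with wt/wt the genotype and that mark cannot be told apart.

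Sense reads on genes numbered 75875711 to 132303735 per library. Xist and Y-linked reads went against the labelled sex in 2 libraries, and whether the 2 samples were exchanged, ages included, was not tested. The library of flox/flox replicate 1, labelled female, held 31 Xist and 21255 Y-linked reads, and that of flox/flox replicate 2, labelled male, held 246646 Xist and 0 Y-linked reads. Each comparison was therefore fitted with the labelled sex and again with the sex read from these transcripts, and a gene was called where both fits passed an adjusted p of 0.05 in the same direction. Levels are reads per 1000000 sense gene reads (CPM) after TMM scaling, which corrects library sizes for differences in composition. Adar stood at 28.1, 30.0 and 53.6 CPM in wt/wt, 22.0 and 31.8 CPM in wt/flox and 49.4, 35.9 and 42.1 CPM in flox/flox. The groups overlapped (log2 fold change flox/flox against wt/wt 0.04 ± 0.19 SE, edgeR adjusted p = 0.899), and the whole-gene count is no check of the genotype labels, since the labels do not name the floxed exons. Ifih1 was at 0 to 0.03 CPM in every library.

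The P450 genes took 1.63% to 2.71% of all sense gene reads. Their summed level was 15453, 14304 and 18421 CPM in wt/wt, 26324 and 23285 CPM in wt/flox and 21893, 31666 and 25731 CPM in flox/flox. The wt/wt libraries were the 3 lowest of the 8, and the other groups overlapped. Between 58.5% and 73.1% of the P450 reads of a library fell on its 10 most read members. Per kilobase of mRNA, Cyp2e1, which oxidises ethanol and acetaminophen, was first with a mean of 1572 CPM per kilobase over the 8 libraries. Cyp3a11, the main Cyp3a enzyme of mouse liver, followed with 1544 CPM per kilobase, ahead of the periportal Cyp2f2 (923) and of Cyp2c29 (495), a drug-metabolising enzyme of pericentral hepatocytes. The order of the first pair differed between libraries, with Cyp2e1 ahead in 4 of them and Cyp3a11 in the other 4. Cyp2d26 (472), Cyp2c70 (468), Cyp2d10 (455), Cyp3a25 (454) and Cyp2d9 (449) lay close together on the same scale, within the spread between libraries. At the other end, Cyp3a57, Cyp4f18, Cyp4f39, Cyp2d12 and Cyp2j8 did not reach 1 CPM in any library.

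**Figure D1:**
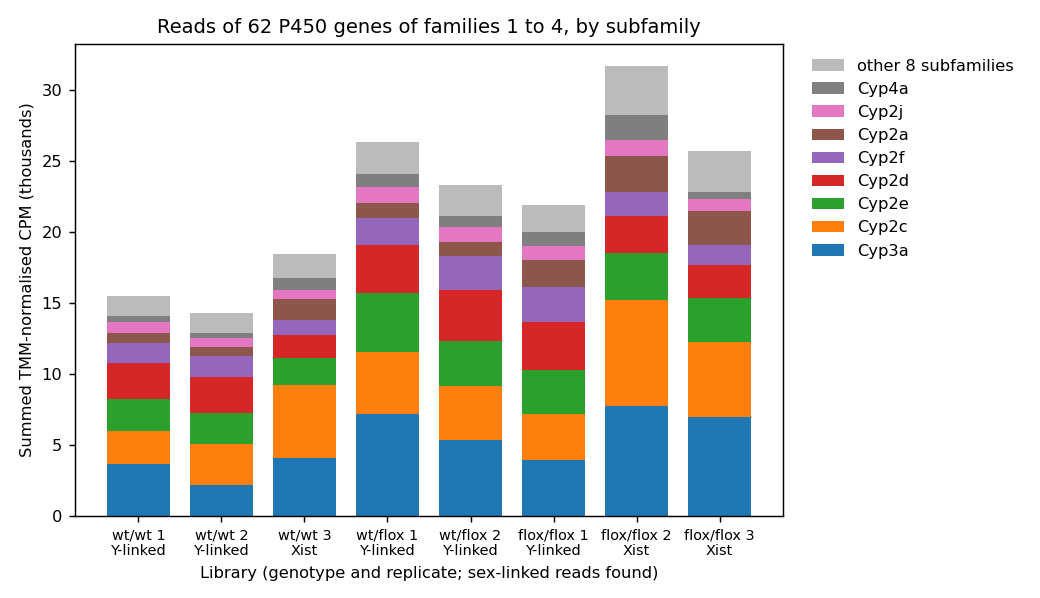
Summed TMM-normalised CPM (in units of 1000, vertical axis) of the 62 P450 genes in each library (horizontal axis), stacked by subfamily, with the sex-linked reads found in each library under its name. The 3 wt/wt bars reach 14304 to 18421 CPM and the 5 others 21893 to 31666 CPM.

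By subfamily, Cyp3a took the most in flox/flox, 3896, 7730 and 6946 CPM, and 3647, 2138 and 4069 CPM in wt/wt. The Cyp1a pair summed to 336, 358 and 323 CPM in wt/wt and 555, 513 and 570 CPM in flox/flox, with no overlap. The 4 Cyp2j genes summed to 716, 639 and 639 CPM in wt/wt and 993, 1104 and 874 CPM in flox/flox, again apart. The sum of the 3 Cyp2b genes was 527 CPM in wt/wt replicate 3 and 1526 and 1127 CPM in flox/flox replicates 2 and 3, the libraries with Xist reads, and 1.29 to 12.7 CPM in the 5 others. Within both kinds of library the flox/flox values were above the wt/wt values.

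Against wt/wt, 16 of the 62 P450 genes rose in flox/flox and 1 fell. Over all 14728 genes tested, 11.2% passed the same pair of fits as higher and 11.5% as lower. With the labelled sex alone 18 were higher (29.0% of the 62, against 12.3% of all genes) and 1 lower (12.5% of all genes), and with the sex from transcripts alone 20 were higher (14.5% of all genes) and 1 lower (14.6% of all genes). The 16 rose by 1.43-fold to 4.10-fold, with a median log2 fold change of 0.75. The median over all 62 P450 genes was 0.77, with 55 above 0, and that over all genes tested was 0.02. Genes whose mRNA length was within that of the P450 genes, 9044 in number, had a median of -0.07. All p-values here measure the spread between these libraries.

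The 16 spread over 8 subfamilies, Cyp1a (1 of 2 members), Cyp2a (2 of 4), Cyp2c (1 of 13), Cyp2d (3 of 8), Cyp2e (the only one), Cyp2j (3 of 4), Cyp3a (2 of 8) and Cyp4f (3 of 7). None of the 3 Cyp2b and 6 Cyp4a genes was among them. All 3 Cyp2b genes and all but 2 of the 6 Cyp4a genes separated libraries with Xist reads from those with Y-linked reads. Such genes vary widely within a group. The labelled sex goes against these reads in flox/flox replicates 1 and 2, so a call in both fits is hard to reach. Their absence is thus no result about these subfamilies. Cyp2r1, the vitamin D 25-hydroxylase gene, and Cyp3a25 passed with the labelled sex only, and Cyp1a1, Cyp2b13, Cyp2f2 and Cyp4a31 passed with the sex from transcripts only.

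Among the enzymes of foreign compounds, Cyp1a2 (GRCm38 chr9:57676937-57683703), which acts on caffeine and arylamines and is a target of AhR, stood at 335, 358 and 323 CPM in wt/wt, 647 and 543 CPM in wt/flox and 554, 512 and 569 CPM in flox/flox. Every library with a floxed allele was above every wt/wt library. Its log2 fold change in flox/flox against wt/wt was 0.68 ± 0.15 SE (edgeR adjusted p = 0.0189). Its neighbour Cyp1a1 was near the floor, at 0.34 to 0.39 CPM in wt/wt and 0.71 to 1.01 CPM in flox/flox.

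Cyp2e1 (chr7:140763739-140774987) was at 2235, 2177 and 1930 CPM in wt/wt, 4150 and 3108 CPM in wt/flox and 3074, 3280 and 3095 CPM in flox/flox. Again the wt/wt libraries lay below all others, and the highest value was a wt/flox library. The log2 fold change in flox/flox was 0.62 ± 0.18 SE (edgeR adjusted p = 0.0413).

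Cyp2a5 (chr7:26835305-26843548), the coumarin hydroxylase, was at 213, 132 and 160 CPM in wt/wt and 666, 304 and 542 CPM in flox/flox. The wt/flox libraries, at 286 and 196 CPM, fell partly within the wt/wt range, the only such case among the 16. The log2 fold change in flox/flox was 1.37 ± 0.34 SE (edgeR adjusted p = 0.0296). Cyp2a12, a steroid hydroxylase of the same cluster, was at 509, 505 and 547 CPM in wt/wt and 858, 906 and 864 CPM in flox/flox, with wt/flox between them at 723 and 768 CPM. Its groups did not overlap at all, and its log2 fold change was 0.75 ± 0.13 SE (edgeR adjusted p = 0.0112).

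In the Cyp2d cluster of chromosome 15, Cyp2d22 was at 183, 182 and 158 CPM in wt/wt, 285 and 258 CPM in wt/flox and 283, 267 and 282 CPM in flox/flox. Cyp2d10, whose mRNA is 90.7% identical to that of Cyp2d11, rose by 0.59 ± 0.16 SE on the log2 scale (edgeR adjusted p = 0.0387). Cyp2d13, which RefSeq lists as a transcribed pseudogene, was at 105, 87.2 and 104 CPM in wt/wt and 149, 241 and 227 CPM in flox/flox. All 3 separated flox/flox from wt/wt, with log2 fold changes of 0.59 to 1.09.

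Among the Cyp3a genes, Cyp3a13 was at 130, 124 and 202 CPM in wt/wt, 290 and 261 CPM in wt/flox and 267, 363 and 290 CPM in flox/flox, and rose by 0.99 ± 0.23 SE on the log2 scale (edgeR adjusted p = 0.0225). Cyp3a59 went from 35.2, 15.0 and 27.1 CPM in wt/wt to 42.8, 123 and 144 CPM in flox/flox. Its log2 fold change of 2.04 ± 0.51 SE was the highest of the 16 with the labelled sex, and with the sex from transcripts it was 1.53, below the 1.68 of Cyp2a5. Its mRNA is 96.6% identical to that of Cyp3a25, so reads of the pair may be shared between them. Cyp3a11, the most abundant of them, was at 2675, 1561 and 2749 CPM in wt/wt, 5596 and 3896 CPM in wt/flox and 2796, 4855 and 4817 CPM in flox/flox. Its flox/flox values were above all wt/wt values, the lowest by a small margin, and the difference did not pass the test (log2 0.83 ± 0.34 SE, edgeR adjusted p = 0.109).

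Of 11 tested genes listed as epoxygenases and hydroxylases of arachidonic acid, Cyp2c23, Cyp2j5, Cyp2j6, Cyp2j9, Cyp4f13 and Cyp4f15 rose (11.2% of all genes did) and none fell (11.5% of all genes did). Cyp4f17, which rose, and Cyp4b1, which fell, are not on this list. This list was drawn up with earlier results of these data known and is no independent evidence. Cyp2c23, an arachidonic acid epoxygenase, was at 203, 213 and 221 CPM in wt/wt, 407 and 361 CPM in wt/flox and 345, 420 and 300 CPM in flox/flox. Cyp2j5, the epoxygenase with the most reads in the subfamily, was at 629, 576 and 570 CPM in wt/wt, 1020 and 934 CPM in wt/flox and 839, 983 and 768 CPM in flox/flox. Both were lower in wt/wt than in any other library, by 0.78 ± 0.16 SE for Cyp2c23 and 0.60 ± 0.14 SE for Cyp2j5 as log2 fold change of flox/flox against wt/wt.

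Cyp2j9 had the largest difference between wt/flox and wt/wt of the 16. It was at 7.67, 5.08 and 3.61 CPM in wt/wt, 17.5 and 21.6 CPM in wt/flox and 12.9, 11.3 and 11.6 CPM in flox/flox. The 3 groups did not overlap, and wt/flox was the highest. The log2 fold change was 1.76 ± 0.28 SE in wt/flox against wt/wt (edgeR adjusted p = 0.0271) and 1.29 ± 0.27 SE in flox/flox against wt/wt.

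The Cyp4f genes encode ω-hydroxylases, some of which inactivate leukotriene B4. Cyp4f15 was at 121, 87.7 and 108 CPM in wt/wt, 217 and 169 CPM in wt/flox and 189, 192 and 218 CPM in flox/flox, a log2 fold change of 0.90 ± 0.18 SE in flox/flox (edgeR adjusted p = 0.0160). Cyp4f13 and Cyp4f17 rose by 0.52 and 0.67 on the same scale. Cyp4f14, the member of the subfamily with the most reads, had a wt/wt library at 343 CPM above a flox/flox library at 321 CPM and did not pass. Cyp4f18, which is found mainly in leukocytes, was at 0.45 CPM in wt/wt replicate 3 and at 0.06 to 0.14 CPM in the other 7 libraries.

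Cyp4b1 (chr4:115624725-115647723), an enzyme of fatty acids and of the lung toxin ipomeanol that is expressed mainly outside the liver, was the gene that fell. It was at 5.25, 4.37 and 6.64 CPM in wt/wt, 2.55 and 1.58 CPM in wt/flox and 1.55, 2.31 and 3.38 CPM in flox/flox. All wt/wt libraries were above all others. The log2 fold change in flox/flox was -1.24 ± 0.34 SE (edgeR adjusted p = 0.0397).

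**Figure D2:**
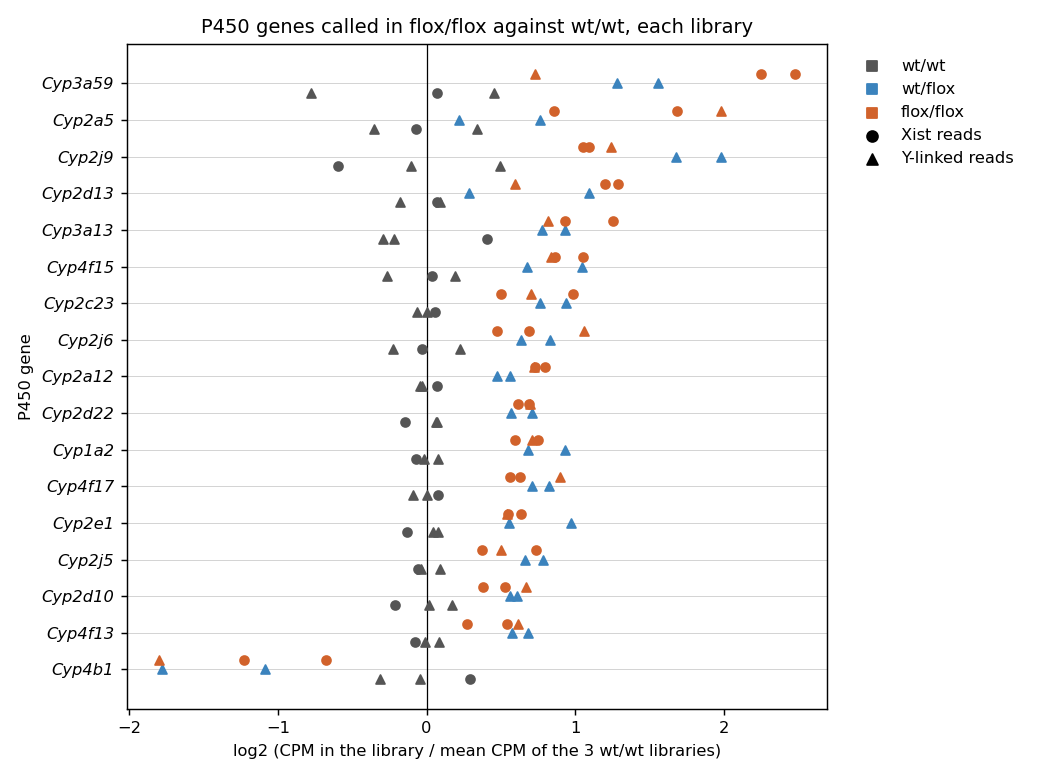
Each point is 1 library: log2 of its CPM over the mean CPM of the 3 wt/wt libraries (horizontal axis) for the 17 P450 genes called in flox/flox against wt/wt (vertical axis). In the 16 genes that rose, all flox/flox points lie to the right of all wt/wt points, and in 15 of them so do both wt/flox points.

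All 16 genes had their 3 flox/flox libraries above their 3 wt/wt libraries, which is close to what the test demands. Over the 62 P450 genes, 23 were apart in this way (23% of all genes tested) and 1 was apart the other way (22% of all genes). The libraries were also compared within one kind of sex-linked read. Among libraries with Xist reads, flox/flox replicates 2 and 3 were both above wt/wt replicate 3 for 43 P450 genes (42.4% of all genes) and both below it for 5 (40.8%). Among those with Y-linked reads, flox/flox replicate 1 was above wt/wt replicates 1 and 2 for 47 (42.7% of all genes) and below both for 3 (44.2%). In 39 of the 62 both held, against 29% of all genes, and in 2, Cyp2c39 and Cyp4b1, both held the other way (29.5% of all genes). The 39 include the 16 called genes and, among others, Cyp2d9, Cyp2b9, Cyp2b10, Cyp2c70 and Cyp4v3.

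The calls depended on single libraries, for the P450 genes as for all genes. With the labelled sex, leaving out flox/flox replicate 2 left 0 P450 genes called higher and 0 of all 14674 genes then tested. Leaving out wt/wt replicate 2 also left 0 P450 genes, with 453 of 14663 genes still called higher. Without wt/wt replicate 3 there were 5 (205 of all 14561 genes) and without wt/wt replicate 1 there were 9 (1011 of all 14660). When flox/flox replicate 1 was dropped 26 were called (2520 of all 14667). With the sex from transcripts the lowest count was 10, when flox/flox replicate 1 was dropped (801 of all 14667 genes). The highest was 21, when flox/flox replicate 3 was dropped (1895 of all 14536). Of the 17 genes called in both fits, all kept their call without flox/flox replicate 1 and 1 without wt/wt replicate 3 (labelled sex). With the sex from transcripts 4 kept theirs without flox/flox replicate 1, and 13 did not. Each gene kept its call in 2 to 5 of the 8 leave-one-out fits with the labelled sex. With the sex from transcripts it was 2 to 8. Without both libraries of contradicted sex, replicate 3 was the only flox/flox library left, so the calls of that fit are not counted. No log2 fold change of a called gene turned its sign in these fits.

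The second floxed allele was compared within the libraries that bear the batch2 mark. In flox/flox against wt/flox, edgeR called 0 of the 62 P450 genes in either direction, as it did 0% of all 14728 genes tested. Both wt/flox libraries and flox/flox replicate 1 held Y-linked reads, and flox/flox replicates 2 and 3 held Xist reads. Sex and the second allele are thus partly confounded here, so 0 calls do not mean that the groups are equal. At an unadjusted p under 0.05 stood 4 P450 genes and 581 of all genes. DESeq2 with the labelled sex called 25 of all genes higher and 9 lower, 2 of them P450 genes, Cyp2b9 and Cyp2b13, which were at under 1 CPM in both wt/flox libraries and at over 100 CPM in the flox/flox libraries with Xist reads. With the sex from transcripts DESeq2 called 0 P450 genes, and 11 of all genes higher and 5 lower. With the labelled sex the 16 genes had a median log2 fold change of 0.00 here, from -0.46 for Cyp2j9 to 0.72 for Cyp2a5. The lowest edgeR adjusted p was 0.917. With the sex from transcripts they ran from -0.38 for Cyp2j9 to 1.29 ± 0.38 SE for Cyp2a5, with 0.993 as the lowest edgeR adjusted p. In 14 of the 16 the wt/flox mean was at or above the lowest flox/flox library, Cyp2a5 and Cyp2a12 being the others.

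Against wt/wt, wt/flox had 8 P450 genes higher (4.31% of all genes tested passed as higher with the labelled sex, 3.99% in both fits) and 0 lower (4.52% of all genes with the labelled sex, 4.03% in both fits). They were Cyp1a2, Cyp2c23, Cyp2d22, Cyp2j5, Cyp2j9, Cyp4f13, Cyp4f15 and Cyp4f17, all among the 16. An unadjusted p under 0.05 was reached by 24 P450 genes and by 4426 of all 14728 genes. With the sex from transcripts 16 were higher (7.58% of all genes), the same 8 with Cyp2a12, Cyp2c29, Cyp2d10, Cyp2e1, Cyp3a11, Cyp3a13, Cyp3a59 and Cyp4v3, and Cyp4b1 was lower (6.9% of all genes). With the labelled sex, the 16 genes called in flox/flox had log2 fold changes of 0.53 to 1.76 when wt/flox was set against wt/wt. Their median was 0.74. With the sex from transcripts the lowest was 0.39, for Cyp2a5. Within the libraries with Y-linked reads, both wt/flox libraries were above both wt/wt libraries for 35 of the 62 (30.1% of all genes) and below them for 3 (35.9%). These comparisons share the wt/wt libraries, so their values stand side by side and do not support each other. With the labelled sex, leaving out any wt/wt or wt/flox library or flox/flox replicate 2 left 0 calls in wt/flox among the P450 genes and 0 among all genes. Without flox/flox replicate 1 there were 15 higher P450 genes (1364 of all 14667 genes).

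**Figure D3:**
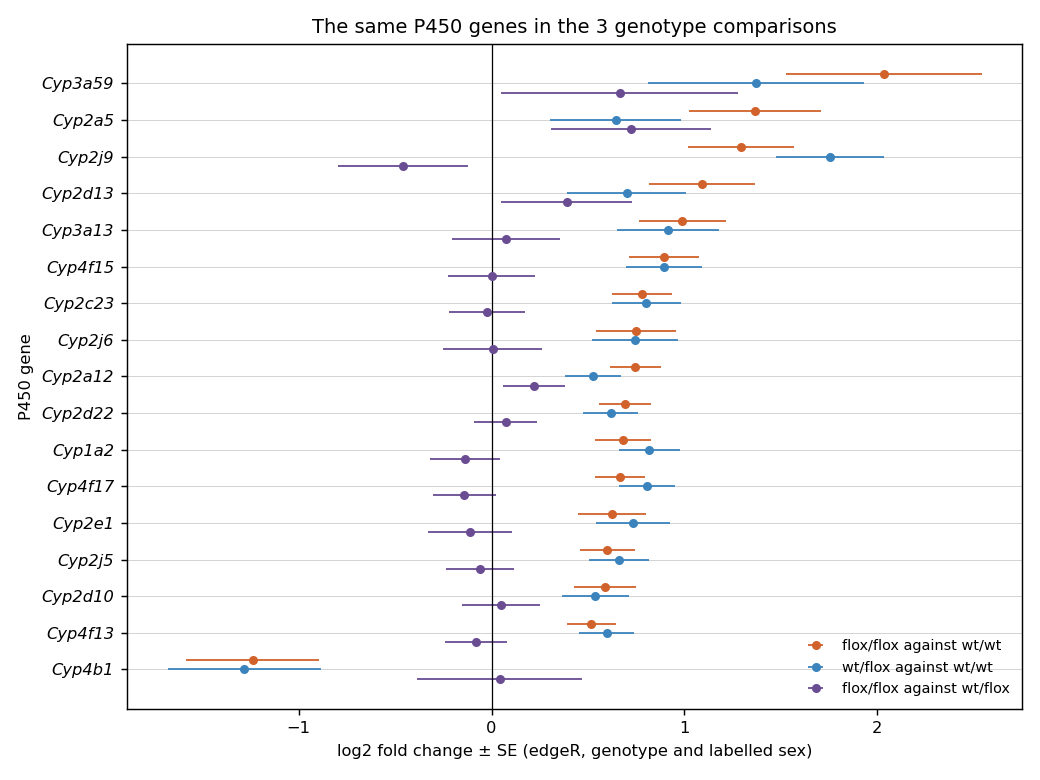
log2 fold change ± SE (horizontal axis) from edgeR with genotype and labelled sex, for the 17 P450 genes called in flox/flox against wt/wt (vertical axis), in the 3 genotype comparisons. Against wt/wt the wt/flox and flox/flox values lie together, and the flox/flox against wt/flox values of the 16 genes that rose lie between -0.46 and 0.72.

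Markers of some of the cell types in these preparations also differed between wt/wt and the other groups. The summed level of 9 hepatocyte markers ranged over 91323 to 107042 CPM in wt/wt, 138701 to 151637 CPM in wt/flox and 145510 to 223993 CPM in flox/flox, and each had reads in every library. The 10 sinusoidal endothelial markers had sums of 181 to 290 CPM for wt/wt libraries against 80.9 to 168 CPM for the 5 others, without overlap. The 10 Kupffer cell markers had sums of 50.3 to 221 CPM for wt/wt against 27.3 to 97.2 CPM, with overlap. Stellate cell markers summed to 32.1 to 68.6 CPM in wt/wt, 30.7 to 41.7 CPM in wt/flox and 39.2 to 80.2 CPM in flox/flox. Cholangiocyte markers summed to 17.6 to 27.3, 7.11 to 27.2 and 13.5 to 36.0 CPM in the same order, so the groups overlapped for both. In flox/flox against wt/wt, 6 of 10 endothelial, 6 of 10 Kupffer cell and 5 of 8 monocyte markers were called lower with the labelled sex (12.5% of all genes). With the sex from transcripts 8, 2 and 1 were (14.6% of all genes), the last 2 counts being near that share. Of the 9 hepatocyte markers, 1, Apob, was called higher with the labelled sex (12.3% of all genes). With the sex from transcripts 1 was higher (14.5% of all genes) and 1 lower (14.6%), all near the share over all genes. Neutrophil markers summed to at most 9.26 CPM and those of T, NK and B cells to at most 2.50 CPM in any library. Their part in the P450 result was not tested, and in bulk samples fewer cells of a type and less RNA per cell cannot be told apart. The share of alignments that were not unique was 8.97% to 10.9% among wt/wt libraries and 3.92% to 4.98% among the others, and its part in the result was not tested. Of the 23 P450 genes whose mRNA shared no stretch of 100 bases with another gene, 7 were among the 16 called, as were 6 of the 25 that shared under 10% of such stretches and 2 of the 13 that shared more. The remaining one, Cyp2d13, had no mRNA to compare.

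A second pattern in these genes ran with the sex-linked reads. It is described without a test, since libraries were grouped by their transcripts. In 21 of the 62 P450 genes the 3 libraries with Xist reads (wt/wt replicate 3 and flox/flox replicates 2 and 3) were all above the 5 with Y-linked reads, against 3.8% of all genes tested. In 7 they were all below, against 3.59% of all genes. The other 34 overlapped. All 16 called genes are among them by construction. Their flox/flox libraries all lay above their wt/wt libraries, and each of these groups held both kinds of library. The higher genes included all 3 Cyp2b genes, 7 of the 13 Cyp2c genes, 4 of the 8 Cyp3a genes and 2 each of the Cyp2a, Cyp4a and Cyp4f genes. The lower ones were Cyp2c67, Cyp2d9, Cyp2d11, Cyp2u1, Cyp4a12a, Cyp4a12b and Cyp4v3. Of the genes listed as female-biased in mouse liver, all 7 tested were in the first group, and all 3 listed as male-biased were in the second. These lists too were drawn up with earlier results of these data known and are no independent evidence.

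Cyp3a41a, a female-biased steroid hydroxylase, was at 497 CPM in wt/wt replicate 3 and at 429 and 247 CPM in flox/flox replicates 2 and 3, and at no more than 0.03 CPM elsewhere. Cyp3a41b, which shares 88.4% of the 100-base stretches of Cyp3a41a, was listed at 0 reads in every library. Cyp2b9 was at 411, 1316 and 904 CPM in the same 3 libraries and at 0.06 to 5.64 CPM in the others. Cyp2c69 was at 998, 1536 and 570 CPM against 0.57 to 9.30 CPM. In the other direction, Cyp4a12a, which forms a vasoactive product of arachidonic acid, was at 0.11, 0.04 and 0.30 CPM in the libraries with Xist reads and at 192 to 568 CPM in those with Y-linked reads. Cyp2d9, a male-biased testosterone hydroxylase, was at 18.6, 43.4 and 81.9 CPM against 945 to 1343 CPM.

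**Figure D4:**
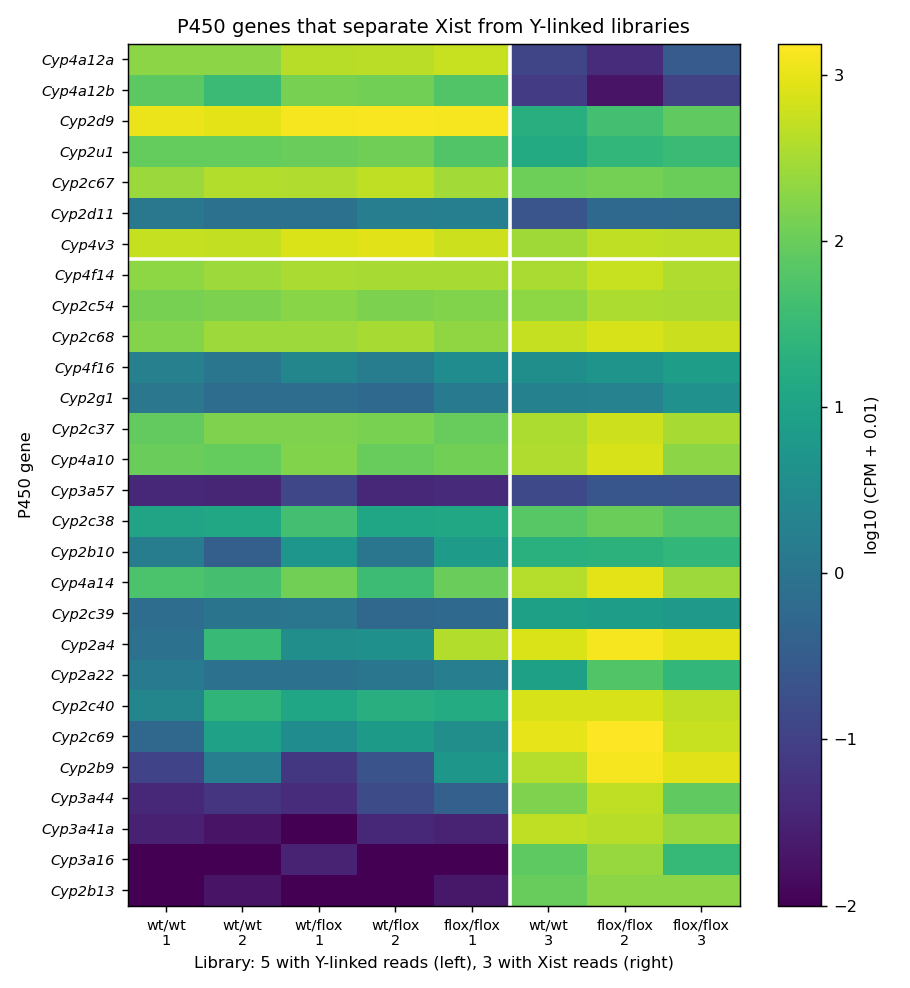
log10 of CPM, after adding 0.01 CPM, as colour for the 28 P450 genes (rows) that separate the 5 libraries with Y-linked reads (left) from the 3 with Xist reads (right). The 7 upper rows are lower in the libraries with Xist reads and the 21 lower rows are higher. Cyp2a4 in flox/flox replicate 1 stands apart from the other libraries with Y-linked reads.

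Among the libraries with Y-linked reads, flox/flox replicate 1 was the highest for several genes of the first group, but not for most of them. It was not the highest for any of the 7 Cyp2c genes, nor for Cyp3a16, Cyp3a41a, Cyp3a57, Cyp4a10, Cyp4a14 and Cyp4f14. Those named next were picked for the high value. Cyp2a4, a female-biased steroid hydroxylase, was at 780, 1290 and 932 CPM in the libraries with Xist reads. In flox/flox replicate 1, which held Y-linked reads, it was at 381 CPM, while the 4 other libraries with Y-linked reads were at 0.86 to 31.8 CPM. In the same library Cyp2b9 was at 5.64 CPM against 0.06 to 1.65 CPM, Cyp2b10 at 7.04 CPM against 0.36 to 5.25 CPM and Cyp3a44 at 0.38 CPM against 0.03 to 0.14 CPM in those 4. Cyp2a5, a close relative of Cyp2a4, was also at its highest in flox/flox replicate 1, at 666 CPM. The mRNAs compared are 1738 bases long for Cyp2a4 and 2013 for Cyp2a5, and are 84.9% identical over the longer one. That figure counts the difference in length as mismatch and so understates how alike the pair is. Of the 100-base stretches of Cyp2a4, 11.2% also occur in Cyp2a5, so reads may be shared between them.

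Near-identical genes did not always share the pattern. Of 20 pairs with mRNAs at least 85% identical over the longer mRNA, 9 had the same pattern in both genes and 11 did not. The 9 include Cyp3a25 with Cyp3a59 and Cyp2d10 with Cyp2d12, in which both genes overlapped between the kinds of library. Close pairs of unequal mRNA length can fall under this limit. Promoter windows were compared for such pairs, and for Cyp2a4 and Cyp2a5, to show how far the differing genes differ upstream. They are the 250 bases before the RefSeq start on GRCm38.p6, found for 49 of the 62 genes. Cyp2a4 and Cyp2a5, of which the first separated the libraries by sex-linked reads and the second did not, have windows that differ by 4 substitutions and by a shift of 1 base at the ends (capitals mark the differing bases).
Cyp2a4, chr7:26306942-26307191, plus strand: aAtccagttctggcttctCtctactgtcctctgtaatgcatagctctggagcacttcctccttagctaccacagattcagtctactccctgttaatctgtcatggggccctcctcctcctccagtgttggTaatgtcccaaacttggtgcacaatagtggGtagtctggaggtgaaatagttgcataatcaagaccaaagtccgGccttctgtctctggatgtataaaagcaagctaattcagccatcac
Cyp2a5, chr7:26835089-26835338, plus strand: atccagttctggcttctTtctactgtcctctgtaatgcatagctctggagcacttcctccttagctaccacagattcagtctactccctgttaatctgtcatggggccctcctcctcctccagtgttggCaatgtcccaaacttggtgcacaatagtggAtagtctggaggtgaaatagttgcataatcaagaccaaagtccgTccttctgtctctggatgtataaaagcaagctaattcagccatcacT
The Cyp2b13 and Cyp2b9 windows differ by 2 substitutions (capitals), and both genes were high in the libraries with Xist reads only.
Cyp2b13, chr7:26061245-26061494, plus strand: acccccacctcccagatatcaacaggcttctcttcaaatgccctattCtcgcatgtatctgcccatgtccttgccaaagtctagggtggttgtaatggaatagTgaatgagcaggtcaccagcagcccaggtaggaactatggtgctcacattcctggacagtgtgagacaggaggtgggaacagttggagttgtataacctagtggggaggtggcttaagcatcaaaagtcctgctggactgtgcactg
Cyp2b9, chr7:26173159-26173408, plus strand: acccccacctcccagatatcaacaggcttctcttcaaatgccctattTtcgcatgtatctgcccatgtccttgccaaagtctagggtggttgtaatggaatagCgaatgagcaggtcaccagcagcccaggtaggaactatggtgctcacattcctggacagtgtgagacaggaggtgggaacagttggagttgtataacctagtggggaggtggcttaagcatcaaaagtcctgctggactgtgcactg
Windows this close thus belonged to a pair with the same pattern and to a pair with different patterns.

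Cyp2c67 and Cyp2c68, neighbours on chromosome 19 with mRNAs 96.6% identical, went opposite ways. Cyp2c67 was at 112, 127 and 106 CPM in the libraries with Xist reads and at 249, 389, 372, 480 and 294 CPM in the 5 others. Cyp2c68 was at 538, 741 and 589 CPM in the first and at 164, 270, 261, 328 and 207 CPM in the second. Neither gene overlapped between the 2 sets of libraries. Since 23.7% of the 100-base stretches of Cyp2c67 and 19.8% of those of Cyp2c68 occur in other genes, reads may be shared between them and their relatives. Their windows are shown because both hold CAAAGTCCA, a sequence of the HNF4 type (capitals, searched on both strands), and that of Cyp2c67 also holds the TATA box letters TATAAA (capitals).
Cyp2c67, chr19:39649043-39649292, minus strand: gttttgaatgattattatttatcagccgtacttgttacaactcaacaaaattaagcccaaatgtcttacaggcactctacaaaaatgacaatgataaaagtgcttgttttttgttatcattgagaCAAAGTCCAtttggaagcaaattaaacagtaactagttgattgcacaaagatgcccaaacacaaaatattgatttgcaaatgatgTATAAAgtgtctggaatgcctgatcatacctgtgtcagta
Cyp2c68, chr19:39741102-39741351, minus strand: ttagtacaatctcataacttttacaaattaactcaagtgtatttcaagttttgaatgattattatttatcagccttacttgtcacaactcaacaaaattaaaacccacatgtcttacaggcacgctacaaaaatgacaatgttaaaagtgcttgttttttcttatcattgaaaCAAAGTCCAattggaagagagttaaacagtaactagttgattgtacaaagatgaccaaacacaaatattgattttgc
CAAAGTCCA begins 125 bases before the start of Cyp2c67 and 77 bases before that of Cyp2c68. The annotated starts are thus set 48 bases apart relative to this sequence. When the windows were shifted by those 48 bases, the 202 bases they share were 91.1% identical, so the TATA box letters of Cyp2c67 fall where the Cyp2c68 window no longer reaches.

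Of the 49 promoter windows, 8 held CAAAGTCCA, those of Cyp2c40, Cyp2c67, Cyp2c68, Cyp2c69, Cyp2c70, Cyp3a11, Cyp3a16 and Cyp3a41a. Among all 32851 windows of the same length 0.384% held it. TATAAA was in 23 of the 49, against 12.4% of all windows. TTCNNNGAA, the letters of a STAT5 site, was in 2, those of Cyp4b1 and Cyp4f13, against 7.02% of all windows. Gene copies share these windows by descent, so the counts are descriptions.

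The other genes of the P450 system were read from lists drawn up with earlier results known. In flox/flox against wt/wt, none of 6 redox partners was higher with the labelled sex (12.3% of all genes) and 3 were lower (12.5% of all genes). Cyb5a, the cytochrome b5 that passes electrons to some P450s, was at 437, 463 and 379 CPM in wt/wt and 232, 263 and 239 CPM in flox/flox (log2 fold change -0.73 ± 0.13 SE, edgeR adjusted p = 0.0123). Cyb5r3, its reductase, fell by 0.87 on the log2 scale in the same test, and both also passed with the sex from transcripts. Cyb5b, the form of the outer mitochondrial membrane, passed with the labelled sex only, and Pgrmc1, a heme-binding partner of P450s, was called higher with the sex from transcripts only. Por was at 145, 92.6 and 256 CPM in wt/wt and 292, 323 and 275 CPM in flox/flox, apart but short of the threshold (log2 0.79 ± 0.42 SE, edgeR adjusted p = 0.199).

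Of 12 genes of heme synthesis and breakdown, 1 was called with the labelled sex, as lower (12.5% of all genes). It was the biliverdin reductase gene Blvra (log2 -0.59 ± 0.15 SE, edgeR adjusted p = 0.0284). With the sex from transcripts 3 were lower (14.6% of all genes). Of 20 regulators, 1 rose in both fits, against 11.2% of all genes. This was Nr1i3, which encodes the drug receptor CAR. It was at 44.1, 42.6 and 68.5 CPM in wt/wt, 61.4 and 48.7 CPM in wt/flox and 71.0, 116 and 115 CPM in flox/flox (log2 0.93 ± 0.27 SE, edgeR adjusted p = 0.0437 with the labelled sex and 0.00679 with the sex from transcripts). Bcl6, a repressor in the growth hormone pathway, was called lower with the labelled sex (edgeR adjusted p = 0.0156) and not with the sex from transcripts (edgeR adjusted p = 0.0995). Cux2, a female-biased repressor of male-biased liver genes, was at 12.3, 37.8 and 28.0 CPM in the libraries with Xist reads and at 0.13 to 0.21 CPM in the others.

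The receptor targets among the P450 genes were counted in the same way for flox/flox against wt/wt in both fits, which called 11.2% of all genes higher, so that 1 of 5 and 2 of 12 below lie near the share over all genes. Of the 5 targets of CAR and PXR, Cyp2a5 was higher, and Cyp2b10, Cyp2c29, Cyp2c55 and Cyp3a11 did not pass. Of the AhR targets, Cyp1a2 was higher and Cyp1b1 was under the limit for reads. None of the 4 PPARα targets was called in both fits: Cyp4a14 stood at 415 CPM in wt/wt replicate 3, 954 in flox/flox replicate 2 and 265 in flox/flox replicate 3, and at 36.6 to 118 CPM elsewhere, and the same 3 libraries were the highest for Cyp4a10. Of the 7 pericentral genes, Cyp1a2, Cyp2a5 and Cyp2e1 were higher, and the periportal Cyp2f2 was at 1391, 1422 and 1063 CPM in wt/wt and 2449, 1665 and 1450 CPM in flox/flox. Of 12 tested genes from other P450 families, Cyp20a1 and Cyp39a1, an oxysterol hydroxylase of bile acid synthesis, rose and none fell.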

How the data were processed

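RNA from 8 mouse liver cell preparations was sequenced. Per the file headers, the deposited tables hold whole-number counts of sense and antisense reads for each gene symbol. GRCm38 (mm10) and DESeq2 appear in the submitters' processing notes. The aligner is not given in the sources used here. From the sense counts, edgeR 4.0.16 (R 4.3.3) fitted all 14728 genes that passed filterByExpr, with TMM scaling, genotype and labelled sex, by the quasi-likelihood test with Benjamini-Hochberg adjustment at 0.05 over all genes. SE is the size of the log2 fold change over the square root of F. A second fit used the sex shown by Xist and by 4 genes of the Y chromosome. DESeq2 1.42.0 was an alternative. The script was checked on simulated counts.

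The members and gene lists were chosen with earlier results of these data known. Genes are named where both fits call them, where they lead a subfamily, lie near the read limit, form a near-identical pair or are in a list, and any other name was chosen after its values were seen. Pairs were compared by mRNA identity, in place of the protein identity first planned. Identity sets the bases changed, added or lost against the longer mRNA, so unequal annotated lengths lower it. Gene positions and lengths (longest coding mRNA) are from GENCODE M21 on GRCm38 for 61 of the 62 genes, and Cyp2d13 is from RefSeq. Antisense reads were 3.99% to 5.35% of the P450 reads of a library. Reads on no gene and ambiguous reads stayed out of library sizes. The share of reads on no gene ran from 22.2% to 28.1% across wt/wt libraries, below the 31.7% to 40.0% of those marked batch2. For ambiguous reads the wt/wt share was the higher one, at 0.511% to 0.668% against 0.317% to 0.419%. Whether these shares bear on the P450 result was not tested. No replicates agreed within sampling noise. The labels do not say that the samples of a group came from separate litters.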

Additional observations from a re-analysis of the deposited data

How the results depend on the processing

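In flox/flox against wt/wt, the 18 higher P450 genes (1810 over all genes) became 9 (792) with the sex from transcripts and a replicate block. The count over all genes is in brackets here and below. The 18 became 0 to 26 (0 to 2520) when libraries were left out one at a time. With the sex from transcripts that gave 10 to 21 (801 to 1895). Without the 2 libraries of contradicted sex only replicate 3 of flox/flox was left, so the calls of this comparison are not counted. The gene called lower (1845) was lost with only the 2 groups compared (1388) and with the length trend removed (1114). It was also lost in 6 of the 8 fits that left out a library (0 to 2718 in such fits). In flox/flox against wt/flox, DESeq2 gave 2 (25) higher and all other settings 0. In wt/flox against wt/wt, the 8 (635) higher genes became 5 (534) with no filter, 20 (1432) with DESeq2, 16 (1116) with the sex from transcripts, 18 (1498) without the 2 libraries of contradicted sex, 20 (1567) with only the 2 groups compared and 0 (0) with the length trend removed. With the sex from transcripts they became 24 (1677) under DESeq2 and 0 (0) under a replicate block. Leaving out a library gave 0 to 15 (0 to 1364). With the sex from transcripts it gave 0 to 17 (0 to 1289), and 14 (938) without flox/flox replicate 2. The lower genes, 0 (665) with the labelled sex, became 2 (1342) with DESeq2. They became 1 with the sex from transcripts (1016), also under DESeq2 (1486), with the replicate block (963) and with only the 2 groups compared (1280). Leave-one-out fits gave 0 to 1 (0 to 1549). The cause of these shifts was not tested, save that fewer libraries leave fewer degrees of freedom.

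Single P450 genes never turned direction past the threshold. Replicate numbers go with the ages and were not taken to pair the samples, since the deviations of same-numbered wt/wt and flox/flox libraries correlated at 0.33, 0.00 and 0.43 across genes and wt/wt replicate 2 was closest to flox/flox replicate 1 (0.35). The replicate block gave 22 (2063) higher and 1 (2301) lower in flox/flox against wt/wt. In wt/flox against wt/wt it gave 8 (844) higher and 1 (963) lower. The fits with the sex from transcripts and a further change were chosen after seeing the data.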

Other observations

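The P450 names left out of the set held reads of their own. The pseudogene Cyp2d37-ps was at 47.1, 29.8 and 40.9 CPM in wt/wt, 54.5 and 74.4 CPM in wt/flox and 73.8, 105 and 104 CPM in flox/flox, with all wt/wt libraries below all others. Cyp2c53-ps was at 0.01 to 0.05 CPM in the 3 libraries with Xist reads and at 0.68 to 4.33 CPM in the 5 with Y-linked reads. Cyp2t4 had 68 sense and 820 antisense reads over the 8 libraries. Among the 62 genes the antisense share ran from 0.82% for Cyp2j8 to 23.0% for Cyp4f39.

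Outside the 4 families, Cyp7b1, an oxysterol hydroxylase, was at 19.7, 20.9 and 20.1 CPM in the libraries with Xist reads and at 263 to 478 CPM in the others. Cyp17a1, a steroid hydroxylase and lyase, was at 120, 320 and 126 CPM against 7.67 to 22.4 CPM. Cyp7a1, the rate-limiting enzyme of bile acid synthesis, followed neither split, at 361, 100 and 135 CPM in wt/wt, 359 and 65.9 CPM in wt/flox and 179, 95.8 and 140 CPM in flox/flox.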
